A study of Chlamydomonas reinhardtii with 12 samples.

Results

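Chlamydomonas reinhardtii is a green alga that photosynthesises in the light and, once its surroundings lose oxygen, turns to fermentation and makes hydrogen. Its hydrogenases take electrons from ferredoxin, an iron-sulphur protein, and are built by dedicated maturation enzymes. The copper-response regulator CRR1 raises a set of its target genes both when copper is short and when oxygen is lost. The transcripts described here are those of amiCYG12, 1 transformant line of strain CC-124 in which an artificial microRNA lowers CYG12, a soluble guanylate cyclase, an enzyme that makes cyclic GMP. They were compared after 6 h of darkness in sealed flasks, in which the suspension turns anoxic, and in cultures kept in the light. This comparison uses 4 of the 12 libraries of the series.

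The dark anoxia group held 2 biological replicates of amiCYG12 and the light group 2 more. All cultures grew aerated in TAP, an acetate medium, under continuous light (20 µmol photons m-2 s-1), and the light samples were taken at the start. Another amiCYG12 group, dark aerated, spent the same 6 h of darkness in open beakers. Wild-type CC-124 cultures went through the same 3 conditions. Dark anoxia and light differ in light, in oxygen, in 6 h of time and in the sealed flask, and these cannot be told apart in this comparison. Values of the dark aerated group are given beside it, but their change from light rests on the same light libraries.

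Each library was stranded poly(A) RNA sequencing. The deposited table holds 1 FPKM value per group, pooled by the authors over both libraries, where FPKM counts fragments per length of transcript and per mapped total. Single libraries therefore have no value here, the spread between replicates cannot be given, and sequencing depth is unknown. The FPKM values of all 19505 transcripts summed to 519823 in dark anoxia and 528786 in light. A locus was represented by its most abundant transcript and kept at 1 FPKM or more in 1 of the 2 groups, which left 9947 of 17741 loci, 2662 of them with a gene symbol. Log2 values below compare FPKM + 1 in dark anoxia with FPKM + 1 in light, which understates the change of weakly expressed genes. "Rose" and "fell" mark loci called significant in the authors' deposited table, where the largest q of a call was 0.0499. "Not called" does not show that a level was unchanged: the smallest deposited log2 change among the calls was 0.87. In RNA from whole cultures, fewer cells of a type and less RNA per cell cannot be told apart.

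The microRNA's target, CYG12 (Cre07.g320750), lies on chromosome 7 from 1168552 to 1174826 in version 5.5 of the genome and stayed below 1 FPKM in amiCYG12. It had 0.429 FPKM in dark anoxia, 0.353 FPKM in dark aerated cells and 0.158 FPKM in light. The wild type had 2.46 FPKM in dark anoxia and 0.132 FPKM in light, which the authors' deposited table called higher in dark anoxia. At under 1 FPKM in both amiCYG12 groups, CYG12 is not among the 9947 loci.

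More loci fell than rose. The authors' deposited table called 941 of 9945 tested loci higher in dark anoxia, which is 9.46%, and 1653 lower, which is 16.6%. Rises of at least 4-fold on the FPKM + 1 scale numbered 76, and falls of that size 222. Among changes of at least 16-fold the order turned round, with 14 rises and 8 falls. The loci that rose had a median of 3.86 FPKM in dark anoxia and 1.27 FPKM in light. Loci that fell had a median of 4.26 FPKM in dark anoxia and 12.6 FPKM in light. The calls and the filter set part of this contrast, since loci under 1 FPKM in light were kept only through dark anoxia. Gene symbols were carried by 19.4% of the loci that rose and by 45.3% of those that fell, against 26.8% of all loci measured. The median log2 over all measured loci was -0.10. A common median ratio over 7519 loci put dark anoxia 0.18 below light on the log2 scale (a shift of -0.18). After removing that shift, 1353 loci were called higher and 1266 lower, which is 13.9% and 13% of the loci tested on that scale. The share of rises among the calls was then 51.7%, in place of 36.3%. The excess of falls thus depends on the scale, while 2206 of the 2594 calls were also made, with the same direction, after rescaling.

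**Figure D1:**
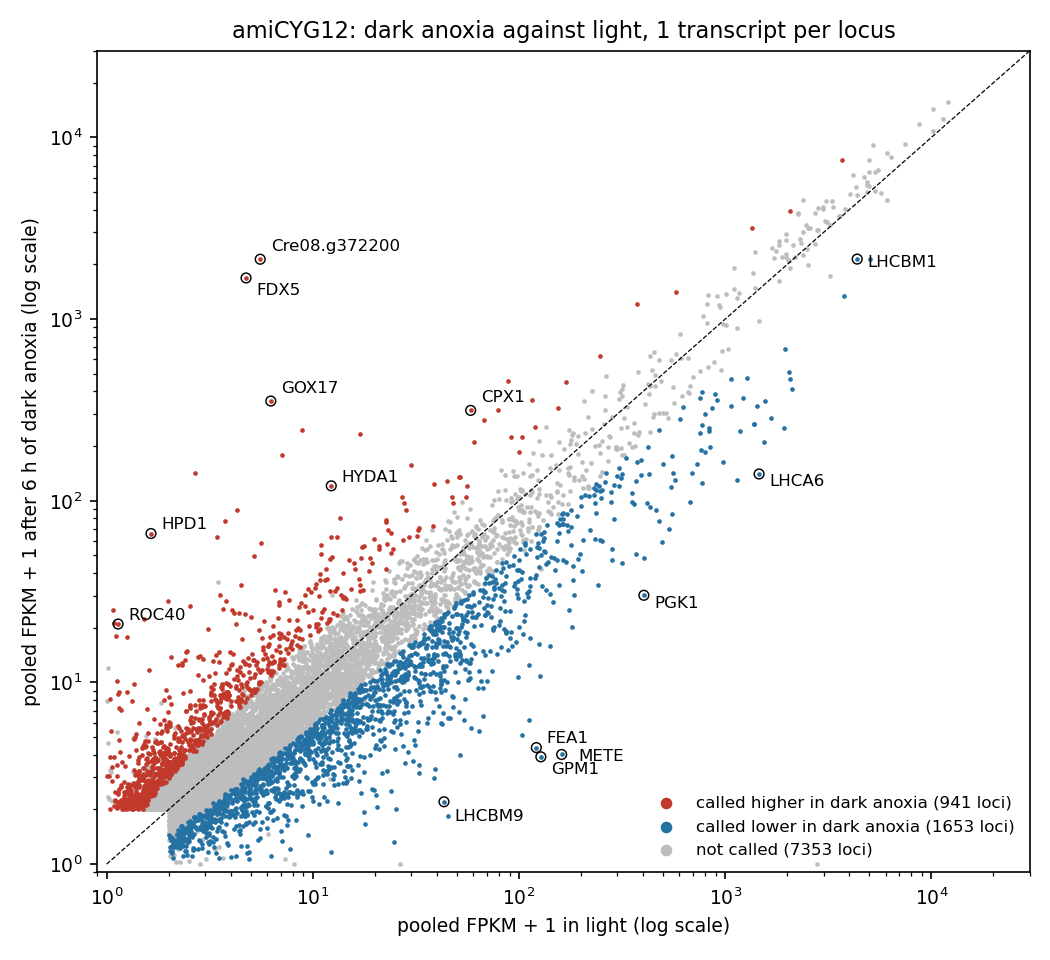
Pooled FPKM + 1 of each measured amiCYG12 locus after 6 h of dark anoxia (vertical, log scale) against light (horizontal, log scale); red points were called higher in the authors' deposited table (941 loci), blue lower (1653 loci), grey not called. FDX5 and Cre08.g372200 stand far above the diagonal, and METE, GPM1 and FEA1 far below it.

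The steepest rise of a gene with a symbol was that of FDX5 (Cre17.g700950, chromosome 17, 704737 to 706717), a ferredoxin of the chloroplast. FDX5 had 1684 FPKM in dark anoxia, 2.84 FPKM in dark aerated cells and 3.74 FPKM in light, a log2 of 8.47. Of the 3 amiCYG12 groups it was high in the sealed flasks alone. A locus without a symbol, Cre08.g372200 (chromosome 8, 2529268 to 2530757), ranked above it with 2135 FPKM in dark anoxia, 0.954 FPKM in dark aerated cells and 4.56 FPKM in light. These 2 transcripts made up 0.324% and 0.411% of all FPKM in dark anoxia, and in light 0.000708% and 0.000862%. HPD1 (chromosome 9, 5146346 to 5150707), which codes for 4-hydroxyphenylpyruvate dioxygenase, an enzyme of tyrosine breakdown, had 65.0 FPKM in dark anoxia, 0.267 FPKM in dark aerated cells and 0.641 FPKM in light. RSE1, an intramembrane metalloprotease, had 16.8 FPKM in dark anoxia, 0.128 FPKM in dark aerated cells and 0.258 FPKM in light. Cre05.g236039, also without a symbol, had 141 FPKM in dark anoxia and 1.69 FPKM in light.

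ROC40 (chromosome 6, 3139556 to 3148979), a MYB-type transcription factor of the circadian clock, followed another course. It had 20.0 FPKM in dark anoxia and 10.2 FPKM in dark aerated cells, against 0.136 FPKM in light, so that it was high in both dark groups. NSG13, named for its expression in gametes starved of nitrogen, likewise had 12.8, 4.88 and 1.06 FPKM in dark anoxia, dark aerated and light, and ELI3, an early light-inducible protein, 23.3, 7.22 and 3.16 FPKM. SRR16, a scavenger receptor cysteine-rich protein, had 18.6 FPKM in dark anoxia, 3.11 FPKM in dark aerated cells and 2.12 FPKM in light.

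**Figure D2:**
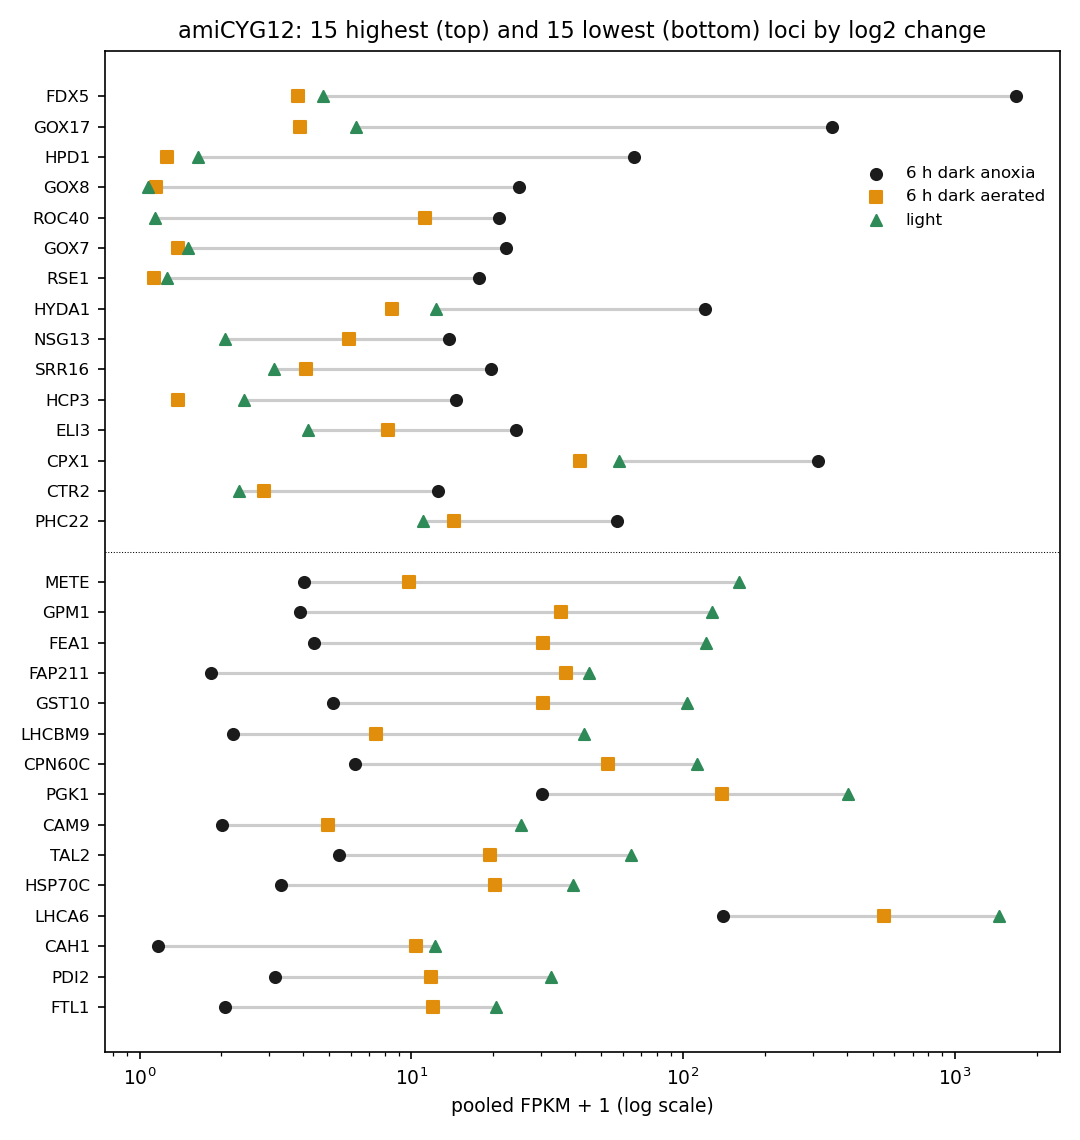
Pooled FPKM + 1 (log scale) of the 15 called loci with a symbol that had the highest log2 in dark anoxia against light (top block) and the 15 with the lowest (bottom block), in amiCYG12 after 6 h of dark anoxia (black circles), after 6 h of dark aerated incubation (orange squares) and in light (green triangles). Among the rises, ROC40 has the dark aerated value (10.2 FPKM) nearest in proportion to its dark anoxia value (20.0 FPKM); all 15 falls have their dark aerated value between the other groups.

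Of 23 measured members of the hydrogenase and fermentation list 7 rose, 5 fell and 11 were not called, with a median log2 of 0.08. Both hydrogenases and their maturation factors were among the 7. HYDA1 (chromosome 3, 8216108 to 8220752), the main hydrogenase, had 120 FPKM in dark anoxia, 7.48 FPKM in dark aerated cells and 11.3 FPKM in light. The second hydrogenase, HYDA2, had 12.5 FPKM in dark anoxia and 4.73 FPKM in light. The maturation factors rose too, HYDEF by a log2 of 2.20 to 12.5 FPKM and HYDG by 1.68 to 55.7 FPKM. HYDG and HYDEF lie next to each other on chromosome 6, with 116 bases between the annotated genes. PFL1, the pyruvate formate lyase that splits pyruvate into formate and acetyl-CoA, rose to 253 FPKM in dark anoxia, against 118 FPKM in light. HCP3 and HCP4, hybrid-cluster proteins, rose by log2 values of 2.59 and 1.83.

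Of the other members of the list 5 fell, so that the share of the 23 that fell lies near the 16.6% over all tested loci. ADH1, the dual-function alcohol and acetaldehyde dehydrogenase that forms ethanol, fell, with 11.1 FPKM in dark anoxia, 13.5 FPKM in dark aerated cells and 26.6 FPKM in light. PAT2, a phosphate acetyltransferase, fell to 2.70 FPKM in dark anoxia, against 7.06 FPKM in light, while its neighbour ACK1, the acetate kinase 224 bases away, had 3.97 and 2.62 FPKM and was not called. The malic enzyme MME1, the phosphoenolpyruvate carboxylase PPC2 and the fumarase FUM1 fell by 1.36, 1.59 and 0.91 on the log2 scale. PDC3, the pyruvate decarboxylase, had 6.33 FPKM in dark anoxia and 10.9 FPKM in light and was not called. HCP1 had 2.21 FPKM in dark anoxia and 0.0441 FPKM in light, for which the authors' deposited table gives a q of 0.0655. In the wild type, where the calls took in 10.7% of loci as higher and 16.7% as lower (27.4% in all), 12 members of the same list rose and 3 fell, with a median of 0.77. The log2 value was lower in amiCYG12 than in wild type for 21 of the 23 members, against 49.8% of all 9947 measured loci (53.3% after the rescaling, with 21 of 23 members as before). All members rest on the same pooled groups, so the count carries no test. HYDA2 had 1.23 in amiCYG12 and 2.57 in the wild type, and HCP4 1.83 and 4.73 in the same order. The test of the difference between the strains, described below, called none of the 23, which does not show equal responses.

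Of 6 measured members of the ferredoxin list 2 rose and 1 fell. Beside FDX5, FDX9 rose by a log2 of 1.15 to 2.39 FPKM. FNR1, the ferredoxin-NADP reductase of photosynthesis, fell to 128 FPKM in dark anoxia, against 370 FPKM in light, and FDX3, FDX4 and FDX6 were not called. PETF, the main photosynthetic ferredoxin, had 1979 FPKM in dark anoxia and 2525 FPKM in light and was not called. By level per length, FDX5 with 1684 FPKM thus came close to PETF in dark anoxia.

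Of 13 measured members of the copper list 6 rose, 2 fell and 5 were not called, with a median log2 of 1.46. Over all tested loci 9.46% were called higher and 16.6% lower. CPX1 (chromosome 2, 1646979 to 1650920), a coproporphyrinogen oxidase, had 313 FPKM in dark anoxia, 40.7 FPKM in dark aerated cells and 57.3 FPKM in light. CRD1, a cyclase of chlorophyll synthesis, had 278 FPKM in dark anoxia, 32.3 FPKM in dark aerated cells and 66.8 FPKM in light. The copper transport proteins CTR1 and CTR2 rose by log2 values of 1.46 and 2.43, and the amine oxidase AOF1 by 2.22. CTR3, a copper transport accessory protein, rose to 30.3 FPKM in dark anoxia, against 6.29 FPKM in light. Of these 6 genes AOF1 was the 1 that also rose in dark aerated cells against light. CRR1 itself had 46.1 FPKM in dark anoxia and 38.3 FPKM in light and was not called. CTH1, the partner isoform of CRD1, fell to 9.70 FPKM in dark anoxia, against 98.1 FPKM in light. Plastocyanin, PCY1, the copper protein that carries electrons to photosystem I, fell to 1342 FPKM in dark anoxia, against 3772 FPKM in light. Cytochrome c6, CYC6, which replaces plastocyanin when copper is short, had 10.97 FPKM in dark anoxia, 0.0470 FPKM in dark aerated cells and 0.0157 FPKM in light. CYC6 was not called, and the authors' deposited table gives it a q of 0.42.

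The GOX genes, annotated as glyoxal or galactose oxidases, had the highest share of rises of any list: 6 of 8 measured members rose and 0 fell. Their median log2 was 1.81, and over all tested loci 9.46% were called higher. GOX6, GOX7, GOX8 and GOX18 were under 1 FPKM in light and were kept through dark anoxia. GOX loci under 1 FPKM in both groups were left out, so the filter itself favours rises in this share. GOX17 (chromosome 16, 2058820 to 2063195) had 353 FPKM in dark anoxia, 2.89 FPKM in dark aerated cells and 5.25 FPKM in light. GOX8 had 24.0 FPKM in dark anoxia and 0.0762 FPKM in light, and GOX7 had 21.4 FPKM in dark anoxia and 0.513 FPKM in light. Both were below 1 FPKM in dark aerated cells and in light. GOX18 was raised in both dark groups, with 8.07 FPKM in dark anoxia and 3.99 FPKM in dark aerated cells, against 0.937 FPKM in light. GOX6, with a log2 of 1.17, lies between them on chromosome 11, 720 bases from GOX8 and 3358 bases from GOX7. Cre16.g657200, 1 of the 3 loci without a symbol that rose most, lies 879 bases from GOX17 and had 244 FPKM in dark anoxia, 1.42 FPKM in dark aerated cells and 7.89 FPKM in light. These neighbours were looked up after the values were seen. Similar GOX genes may share reads, and the sources used here do not give how such reads were assigned.

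Enzymes that make and break cyclic nucleotides were measured as well, since the line is a cyclase knockdown. Of 29 measured cyclases 11 rose and 2 fell, with a median log2 of 0.31. All were weakly expressed. The most abundant of the 11 that rose, CYG43, had 4.50 FPKM in dark anoxia and 1.88 FPKM in light. CYG1 had the largest rise, with 2.45 FPKM in dark anoxia and 0.225 FPKM in light, followed by CYG54 with 3.73 and 0.831 FPKM. CYG9 and CYG65 fell. In the wild type 5 of the same 29 rose and 3 fell. The 29 were kept by their level in amiCYG12 alone, so these counts do not compare the strains. Among the 11 that rose, CYG1, CYG5, CYG13, CYG29, CYG54 and CYG59 were under 1 FPKM in light and were kept through dark anoxia. CYG12, CYG19, CYG26, CYG49 and CYG56, under 1 FPKM in both amiCYG12 groups, were left out and were called higher in wild type. CYG26 and CYG49 were called higher in amiCYG12 too. Of 16 phosphodiesterases PDE1 and PDE30 rose, by log2 values of 0.85 and 1.17, and 0 fell. Their share of rises lies near the 9.46% over all tested loci. The 2 truncated hemoglobins measured, THB3 and THB4, had log2 values of 0.63 and -0.30 and were not called.

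**Figure D3:**
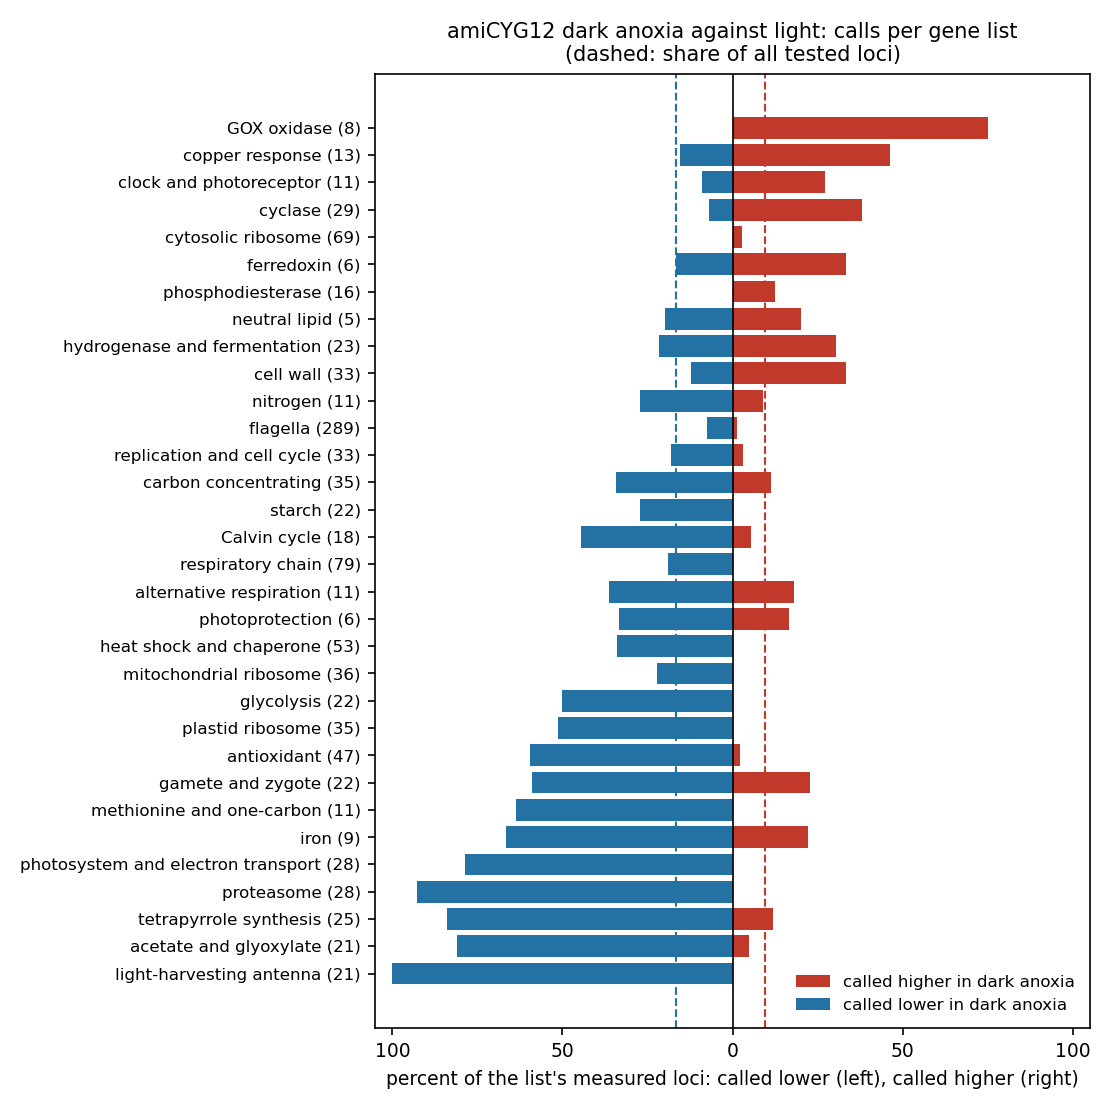
Share of each gene list's measured loci (number in brackets) that the authors' deposited table called lower (blue, left) or higher (red, right) in dark anoxia than in light in amiCYG12; dashed lines mark the shares over all tested loci, 16.6% lower and 9.46% higher. Lists with at least 5 measured loci are ordered by median log2. All 21 antenna genes were called lower, and 6 of 8 GOX genes higher.

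The light-harvesting antenna, the chlorophyll proteins that gather light for both photosystems, fell as a whole. All 21 measured members fell, and their median log2 was -2.39. After the rescaling 20 of them were called lower. LHCA6 (chromosome 6, 4069356 to 4071703), an antenna protein of photosystem I, had 139 FPKM in dark anoxia, 547 FPKM in dark aerated cells and 1459 FPKM in light. CP26 (LHCB5) and CP29 (LHCB4), the minor antenna of photosystem II, fell by 3.14 and 2.86 on the log2 scale. Among the major antenna genes, LHCBM6 had 251 FPKM in dark anoxia, 656 FPKM in dark aerated cells and 1923 FPKM in light. LHCBM1, the most abundant in light, had 2139 FPKM in dark anoxia and 4366 FPKM in light, and LHCB7 had the smallest fall, 0.96. The antenna was lower in dark aerated cells too: 18 of the 21 fell in dark aerated cells against light, with a median of -1.28, in a comparison that called 3.09% of loci higher and 10.4% lower (13.5% in all). In the wild type 17 of the 21 fell in dark anoxia and 1 rose, with a median of -1.48. LHCBM4, LHCBM6, LHCBM8 and LHCBM9 lie on chromosome 6 and are close in sequence, so their separate values are uncertain.

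Most measured subunits of the photosystems and the cytochrome b6f complex fell too. Of 28 measured members of that list 22 fell and 0 rose, with a median log2 of -1.58. PSAI, a subunit of photosystem I, fell by 2.62, and PSBP1 and PSBO, which shield the water-splitting site of photosystem II, fell by 2.38 and 2.09. PSBO had 333 FPKM in dark anoxia, 699 FPKM in dark aerated cells and 1420 FPKM in light. The Rieske protein PETC fell by 1.04. The 6 members not called were PETF, PETM, PSBP5 and the chloroplast ATP synthase genes. ATPC, ATPD and ATPG had log2 values of 0.08, 0.42 and 0.26. The plastid ribosome, which translates the chloroplast's own genes, followed with 18 of 35 measured proteins lower and 0 higher, led by PSRP1 with a fall of 2.49. After the rescaling 8 of the 35 were called lower.

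Chlorophyll and haem synthesis fell at almost every step. Of 25 measured genes 21 fell and 3 rose, with a median log2 of -1.87. At the start of the pathway GSA1, which makes aminolevulinate, had 13.4 FPKM in dark anoxia, 65.2 FPKM in dark aerated cells and 77.1 FPKM in light. PPX1, the protoporphyrinogen oxidase, had 1.54 FPKM in dark anoxia, 14.0 FPKM in dark aerated cells and 22.8 FPKM in light, the deepest fall of the pathway. The magnesium chelatase subunits CHLD and CHLI1 fell by 2.50 and 2.57, the methyltransferase CHLM by 2.27, the light-dependent reductase POR1 by 1.71 and the chlorophyll synthase CHLG by 2.27. The 3 rises were CPX1, CRD1 and the haem oxygenase HMO2, and the first 2 of these also belong to the copper list. The isoforms of the same steps moved apart: CPX2 fell by 1.35 where CPX1 rose, and CTH1 fell by 3.21 where CRD1 rose. CAO1, which forms chlorophyll b, had 23.7 FPKM in dark anoxia and 26.1 FPKM in light and was not called. In dark aerated cells 5 of the 25 fell and 0 rose. In the wild type 21 fell and 3 rose.

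**Figure D4:**
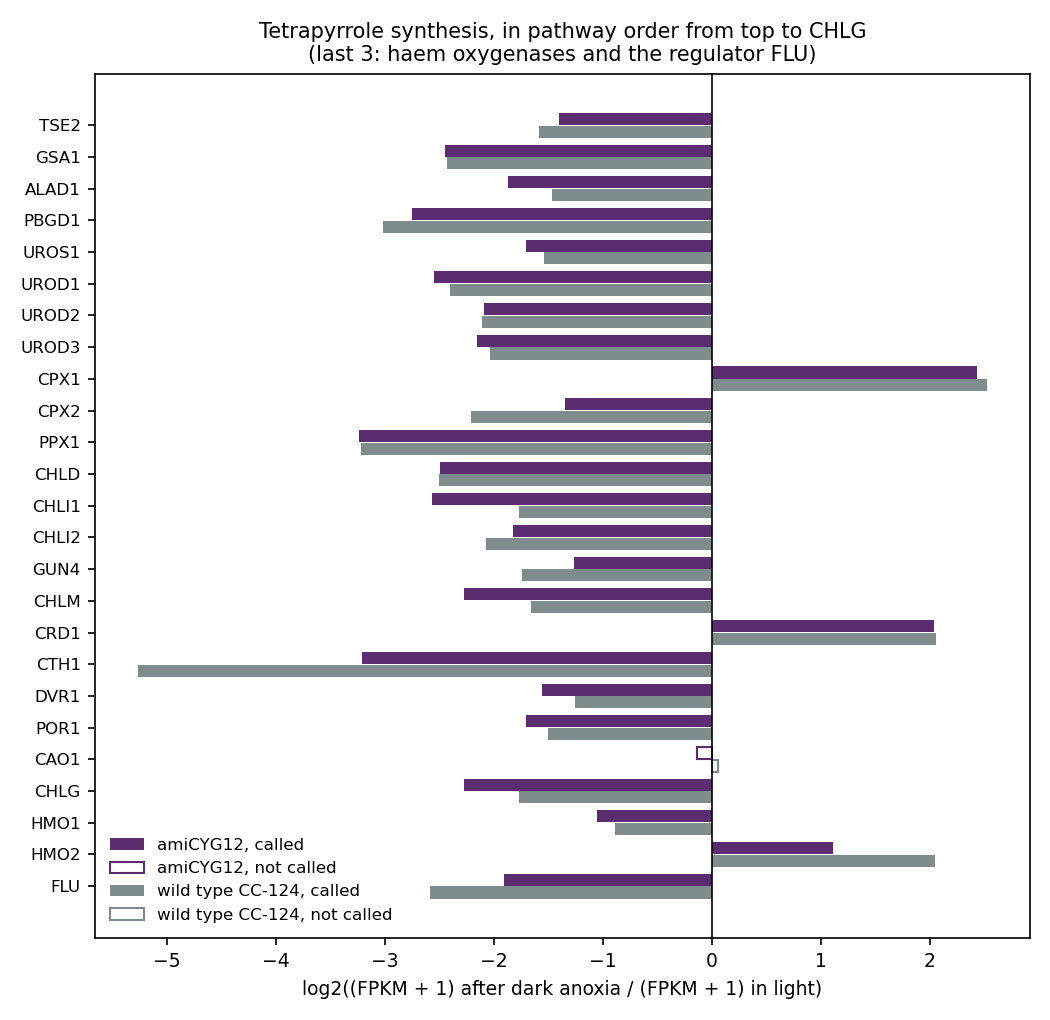
Log2 of FPKM + 1 in dark anoxia against light for 25 genes of chlorophyll and haem synthesis, in pathway order from TSE2 to CHLG and then HMO1, HMO2 and FLU, in amiCYG12 (purple, upper bar) and wild type (grey, lower bar); filled bars were called in the authors' deposited table. CPX1, CRD1 and HMO2 point up (log2 of 2.43, 2.04 and 1.11 in amiCYG12), CAO1 stays near 0, and the other bars point down.

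Most enzymes that feed on acetate fell in the sealed flasks. TAP cultures take up acetate, turn it to acetyl-CoA and run it through the glyoxylate and citric acid cycles. Of 21 measured genes 17 fell and 1 rose, with a median log2 of -2.05. ACS3, an acetyl-CoA synthetase, had 58.6 FPKM in dark anoxia, 433 FPKM in dark aerated cells and 491 FPKM in light. CIS2, a citrate synthase, had 33.4 FPKM in dark anoxia, 190 FPKM in dark aerated cells and 241 FPKM in light, and malate synthase, MAS1, 96.6, 305 and 415 FPKM in the same order. Aconitase, ACH1, fell by 2.79 and the oxoglutarate dehydrogenase OGD1 by 2.28. The 1 rise was ACS1, another acetyl-CoA synthetase, with 6.47 FPKM in dark anoxia and 1.92 FPKM in light. Isocitrate lyase, ICL1, had 1736 FPKM in dark anoxia, 2848 FPKM in dark aerated cells and 3205 FPKM in light and was not called, the authors' deposited table giving a q of 0.0719. Dark aerated cells had 0 of the 21 called in either direction against light, with a median of -0.25. In the wild type 13 of the 21 fell in dark anoxia and 1 rose, and the log2 value of amiCYG12 was below that of the wild type for all 21 members, also after the rescaling, against 49.8% of all measured loci. As these members share their pooled groups, that count too carries no test. The test of the difference between the strains called none of the 21, which does not show equal responses.

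Glycolysis, the Calvin cycle and starch genes fell in part, where 16.6% of all tested loci were called lower. Of 22 measured glycolytic genes 11 fell and 0 rose, with a median log2 of -0.72. GPM1 (Cre06.g278210, chromosome 6, 4052700 to 4058495), a phosphoglucomutase that shares its symbol with a phosphoglycerate mutase locus, had 2.90 FPKM in dark anoxia, 34.4 FPKM in dark aerated cells and 127 FPKM in light. The phosphofructokinases PFK1 and PFK2 fell by 1.33 and 1.84, and the transaldolases TAL1 and TAL2, of the pentose phosphate pathway, by 2.38 and 3.57. Of the pyruvate kinases PYK4 fell, by 0.67, and PYK1, PYK2, PYK3 and PYK5 were not called. Of 18 Calvin cycle genes 8 fell and 1 rose. PGK1, the phosphoglycerate kinase of the chloroplast, had 29.2 FPKM in dark anoxia, 138 FPKM in dark aerated cells and 402 FPKM in light. RBCS1, a small subunit of Rubisco, fell to 352 FPKM in dark anoxia, against 1562 FPKM in light, while its near-identical neighbour RBCS2 had 8248 FPKM in dark anoxia and 6081 FPKM in light and was not called. Reads of such copies may have been shared between them, so their separate values are uncertain. The rise was that of RCA2, a Rubisco activase-like protein, by 1.39. Of 22 starch genes 6 fell, among them the large subunit of ADP-glucose pyrophosphorylase, STA1, with 46.5 FPKM in dark anoxia and 152 FPKM in light, and 0 rose.

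The carbon-concentrating list fell in part. It holds genes that supply Rubisco with carbon dioxide and others with a low-CO2 symbol, such as LCI8, described as an N-acetylglutamate synthase. Further carbonic anhydrases, such as CAG1 and CAH8, are members too, and neither of these was called. Of 35 measured members 12 fell and 4 rose, with a median log2 of -0.27. The share that rose lies near the 9.46% over all tested loci. CAH1, the periplasmic carbonic anhydrase, had 0.172 FPKM in dark anoxia, 9.37 FPKM in dark aerated cells and 11.2 FPKM in light. LCIB had 16.5 FPKM in dark anoxia, 123 FPKM in dark aerated cells and 112 FPKM in light. Both were low in the sealed flasks alone. LCI30, named as low-CO2-inducible, rose in both dark groups, to 356 FPKM in dark anoxia and 447 FPKM in dark aerated cells, against 115 FPKM in light.

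The proteasome, the complex that breaks down tagged proteins, fell in nearly all of its parts. Of 28 measured subunits 26 fell and 0 rose, with a median log2 of -1.84. Subunits of the 20S core such as POA7, with 3.49 FPKM in dark anoxia and 21.1 FPKM in light, moved with subunits of the 19S regulator such as RPT4, with 3.51 and 19.2 FPKM, and RPN12, with 3.74 and 20.3 FPKM. The falls of called subunits ran over a narrow range, from 1.09 for RPT6 to 2.30 for POA7. RPN7 and PBA2 were not called, with log2 values of -2.05 and -0.92. In dark aerated cells 2 subunits fell against light, and in the wild type 25 of the 28 fell in dark anoxia.

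Cytosolic ribosomal proteins gave the most abundant transcripts, and few of them were called. RPL23a had 15633 FPKM in dark anoxia and 12036 FPKM in light, and RPL36a, RPS27a, RPL29 and RPS21 followed it in dark anoxia with 14378, 12656, 11924 and 10850 FPKM. None of these 5 was called. Over 69 measured proteins of the cytosolic ribosome 2 rose, RPL7ae and RPS10, and 0 fell, with a median log2 of 0.27. Of 36 mitochondrial ribosomal proteins 8 fell and 0 rose, with a median of -0.57. That share, 22.2%, lies near the 16.6% over all tested loci, and after the rescaling 5 were called lower and 1 higher.

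In the respiratory chain of the mitochondrion 15 of 79 measured genes fell and 0 rose, with a median log2 of -0.45. That share, 19.0%, lies near the 16.6% over all tested loci, and after the rescaling 9 were called lower. NUOAF4, named as an assembly factor of complex I, had the deepest fall, to 1.45 FPKM in dark anoxia, against 16.2 FPKM in light. Among 11 genes of alternative respiration AOX2, an alternative oxidase that takes electrons from ubiquinol to oxygen, rose to 14.9 FPKM in dark anoxia, against 4.89 FPKM in dark aerated cells and 5.03 FPKM in light. The uncoupling protein UCP2 rose too, and UCP1, PTO2, NDA1 and NDA3 fell, and after the rescaling 2 of the 11 were called lower. AOX1, another alternative oxidase, had 15.6 FPKM in dark anoxia and 12.7 FPKM in light and was not called.

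Some chaperones and enzymes that remove reactive oxygen fell, where 16.6% of all tested loci were called lower. Of 53 measured chaperones 18 fell and 0 rose. CPN60C, a chaperonin, had 5.19 FPKM in dark anoxia, 52.2 FPKM in dark aerated cells and 111 FPKM in light, and HSP70C had 2.32, 19.3 and 38.3 FPKM. HSP70A, the cytosolic form, had 129 FPKM in dark anoxia and 194 FPKM in light and was not called. Of 47 antioxidant genes 28 fell and 1 rose, with a median log2 of -0.97. PRX1, a chloroplast peroxiredoxin, had 410 FPKM in dark anoxia, 688 FPKM in dark aerated cells and 2114 FPKM in light. The ascorbate peroxidase APX1 fell by 1.58 and the glutathione peroxidase GPX5 by 2.55. CAT2, a catalase-peroxidase, rose by 0.61 to 1.36 FPKM.

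Iron uptake and methionine synthesis held some of the deepest falls. METE (Cre03.g180750, chromosome 3, 5031620 to 5039995), the methionine synthase that works without cobalamin, had 3.01 FPKM in dark anoxia, 8.81 FPKM in dark aerated cells and 160 FPKM in light. It was low in both dark groups. SHMT2, a serine hydroxymethyltransferase of one-carbon metabolism, had 11.4 FPKM in dark anoxia, 52.0 FPKM in dark aerated cells and 111 FPKM in light. In that list 7 of 11 fell and 0 rose. FEA1 (chromosome 12, 8671306 to 8675189), a secreted iron-assimilating protein, had 3.38 FPKM in dark anoxia, 29.5 FPKM in dark aerated cells and 120 FPKM in light, and FEA2, 458 bases from it, had 0.745, 5.03 and 7.32 FPKM. The ferroxidase FOX1 and ferritin FER1 fell by 1.44 and 1.54. The metal transporters IRT2 and NRM1 rose, by 2.57 and 1.90, and the iron permease FTR1 was not called. Of the 9 members of the iron list 6 fell and 2 rose. Those that fell include the superoxide dismutases MSD3 and FSD1, which the antioxidant list holds as well.

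Of 289 measured flagellar genes 22 fell and 4 rose in dark anoxia against light, which is 7.61% lower against 16.6% over all tested loci, with a median log2 of -0.23, and after the rescaling 12 fell and 8 rose. In dark aerated cells 215 of the 289 fell against the same light libraries and 1 rose, with a median of -1.12. The authors' deposited table also compares the dark groups with each other, and there it called 13.4% of loci higher and 12.4% lower in dark anoxia than in dark aerated cells (25.8% in all). In that comparison 173 of the 289 flagellar genes were called higher in dark anoxia and 5 lower, with a median log2 of 0.88. FAP211 had 0.833 FPKM in dark anoxia, 36.1 FPKM in dark aerated cells and 44.0 FPKM in light, the deepest fall of the list. FAP113 rose to 458 FPKM in dark anoxia, against 78.6 FPKM in dark aerated cells and 87.3 FPKM in light. Of 33 replication and cell cycle genes 6 fell and 1 rose in dark anoxia against light, and the 18.2% that fell lies near the 16.6% over all tested loci. In dark aerated cells 10 rose and 0 fell against the same light libraries. Set directly against dark aerated cells, 16 of the 33 were called lower in dark anoxia and 1 higher, with a median log2 of -0.61. CDKB1, a cyclin-dependent kinase of dividing cells, had 1.45 FPKM in dark anoxia, 11.6 FPKM in dark aerated cells and 4.74 FPKM in light. MCM4, of the helicase that opens replication origins, had 0.285 FPKM in dark anoxia, 3.58 FPKM in dark aerated cells and 1.32 FPKM in light. CDKB1 and MCM4 were both called lower in dark anoxia than in dark aerated cells.

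Cell wall genes were among the few lists with more rises than falls. Of 33 measured members 11 rose and 4 fell, with a median log2 of 0.03. The pherophorins PHC19 and PHC22, hydroxyproline-rich proteins of the extracellular matrix, rose by 2.29 and 2.38. PHC19 had 31.2 FPKM in dark anoxia, 5.09 FPKM in dark aerated cells and 5.59 FPKM in light, and lies 14469 bases from PHC22 on chromosome 17. GAS28, a hydroxyproline-rich glycoprotein, had 104 FPKM in dark anoxia, 14.4 FPKM in dark aerated cells and 26.1 FPKM in light, and the wall metalloproteinase MMP9 had 27.3, 6.72 and 6.71 FPKM. HRP2, HRP3, PHC9 and PHC10 fell, and after the rescaling 2 members of the list were called lower.

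The same contrast in the wild type, which shares no library with that of amiCYG12, changed many of the same loci. Over the 10572 loci with at least 1 FPKM in 1 of the 4 groups, 659 loci rose in both strains, which is 66.4% of the rises in amiCYG12 and 53.6% of those in the wild type. In both strains 1136 loci fell, 68.1% of the falls in amiCYG12 and 67.2% of those in the wild type. A total of 12 loci had opposite calls. Across these loci the log2 values of the strains had a Pearson's r of 0.80 and a Spearman's rho of 0.77. Loci are not independent replicates, and each point rests on pooled values.

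Where the responses of amiCYG12 and the wild type differed was tested on the difference between the deposited log2 changes, with an error recovered from the deposited p-values and adjustment by Benjamini-Hochberg over 9921 loci. The difference was called for 28 loci (0.282%), positive for 7 (0.0706%) and negative for 21 (0.212%), and 565 loci had an unadjusted p below 0.05. The median error of a difference was 0.54, and the smallest difference called was 2.01 in size, so that smaller differences went uncalled. LHCBM9 (chromosome 6, 5428650 to 5433565), an antenna gene, had the largest difference among loci with a symbol, -6.36 on the log2 scale, with an adjusted p of 0.00346 by this test. In amiCYG12 it had 1.204 FPKM in dark anoxia and 42.3 FPKM in light, whereas in the wild type it had 34.8 FPKM in dark anoxia and 14.9 FPKM in light. The related LHCBM8 fell in both strains, with 11.7 FPKM in dark anoxia and 37.4 FPKM in light in amiCYG12, against 18.7 and 116 FPKM in the wild type. HRP3, a hydroxyproline-rich glycoprotein, had 19.8 FPKM in dark anoxia and 39.9 FPKM in light in amiCYG12, against 57.5 and 11.9 FPKM in the wild type. TBA1, a translation factor for the photosystem II protein PsbA, had 6.97 FPKM in dark anoxia and 13.0 FPKM in light in amiCYG12, against 32.5 and 13.6 FPKM in the wild type. In LHCBM9, HRP3 and TBA1 the strains moved in opposite directions, and each was called in both strains. The falls of HRP3 and TBA1 in amiCYG12 had q-values of 0.0228 and 0.0476 in the authors' deposited table. After the rescaling neither of these 2 falls was called.

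Of the remaining loci with a symbol, 6 had a more negative change in amiCYG12: DNJ14, a DnaJ-like co-chaperone, PAO1, a pheophorbide a oxygenase, FAP51, SBD1, a selenium-binding protein, UGD1, a UDP-glucose dehydrogenase, and the pherophorin PHC8. Their differences ran from -2.56 to -2.01. LAL2, a La-like RNA-binding protein, was the 1 locus with a symbol whose change was more positive, by 3.36: it had 12.9 FPKM in dark anoxia and 1.78 FPKM in light in amiCYG12, against 1.72 and 2.45 FPKM in the wild type. No listed gene of hydrogen production, copper supply, acetate use, chlorophyll synthesis or the proteasome was among the 28. That does not show equal responses. Steep changes carry large recovered errors: the error of the difference was 1.23 for HYDA1, 0.87 for CPX1 and 0.94 for ACS3. In both strains these 3 genes had the smallest deposited p-value, 5e-05. At that limit the recovered error grows with the change itself and is an upper limit. Where both strains change the same way at this limit, the test could hardly call a difference.

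**Figure D5:**
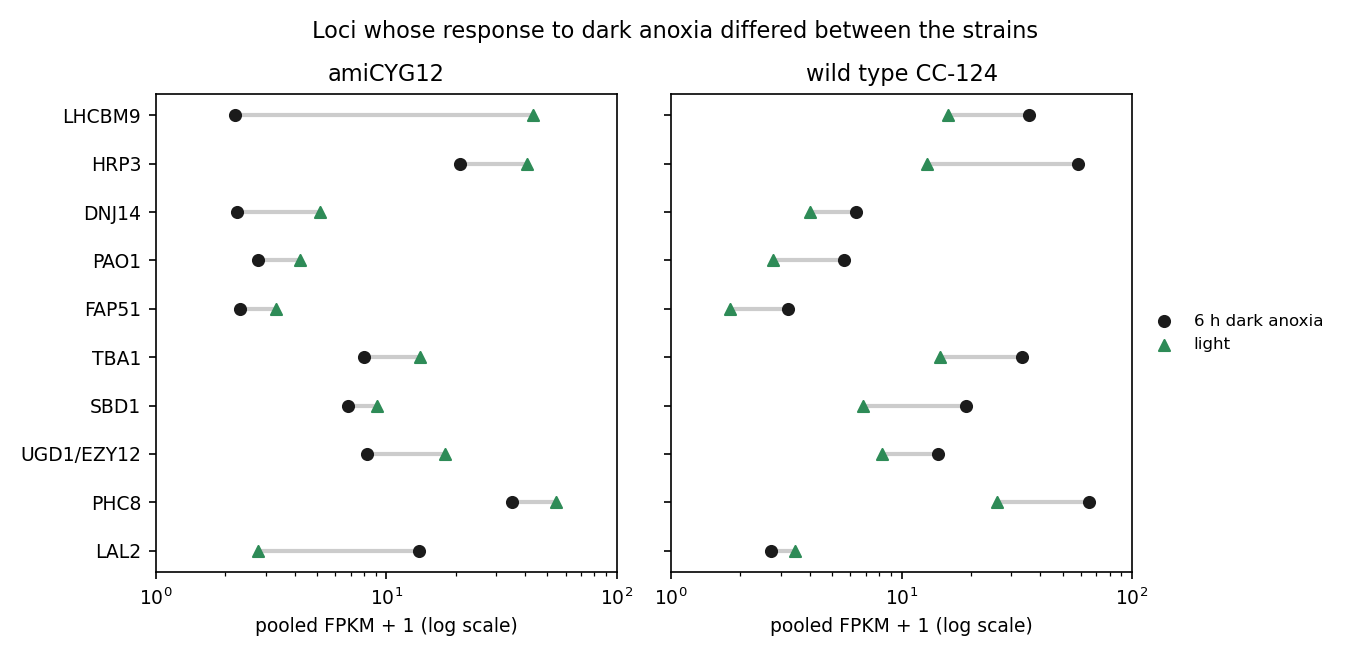
Pooled FPKM + 1 (log scale) after 6 h of dark anoxia (black circles) and in light (green triangles), in amiCYG12 (left) and wild type (right), for the 10 loci with a symbol whose response to dark anoxia differed between the strains. LHCBM9 had 1.204 FPKM in dark anoxia and 42.3 FPKM in light in amiCYG12, and lies the other way round in the wild type; LAL2 is the locus with a larger rise in amiCYG12.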

How the data were processed

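Libraries came from a stranded mRNA kit after poly(A) selection, per the labels' protocols. Reads were mapped to genome version 5.5 on Phytozome 11, per the file headers. CASAVA 1.8.2, Bowtie2 2.0.5, TopHat2 2.0.6, SAMtools 1.2 and Cufflinks 2.1.1 come from the submitters' processing notes. The authors deposited 1 table with a pooled FPKM per group of 2 libraries and, for each comparison, the status, the log2 fold change, the p-value and the q-value of the test. The sources used here do not give whether counting used the strand, nor how q was adjusted.

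From it, log2((FPKM + 1)/(FPKM + 1)) was computed for the most abundant transcript of each locus with at least 1 FPKM in 1 of the groups compared (Python 3.11.15, pandas 2.3.3, SciPy 1.17.1). Calls are the authors' deposited ones, which equal a status of OK and a q-value of at most 0.05. An error was recovered by dividing the size of a deposited log2 fold change by the two-sided normal quantile of its p-value (median 0.36 where the mean of both groups reached 10 FPKM). It describes the authors' p-values and is not a replicate error. Where the p-value is the smallest deposited, 5e-05, the recovered error is an upper limit, and loci with p-values over 0.95 got none. Differences between the strains' responses were tested with these errors, two-sided against a normal distribution. The test was run on simulated data whose noise was drawn from these same errors, so that run cannot show whether the errors are right.

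Members and lists (34 lists by symbol) were chosen with earlier results of these data known, and some symbols were dropped from the lists where the table's descriptions named another protein. Named genes are the 15 highest and 15 lowest called loci with a symbol and 10 FPKM, the 3 highest and lowest without one, list members, CYG12, the loci with a strain difference and the 5 most abundant. The deposited comparison between the dark groups was added after the data were seen. Starts in the table count from 0 and were raised by 1. Values per library, and sequences, were not used here.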

Additional observations from a re-analysis of the deposited data

Results flagged for a closer look

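The response to dark anoxia differed between amiCYG12 and the wild type, by the test of the difference of their deposited log2 changes, for 10 loci with a symbol. The differences, amiCYG12 minus wild type on the log2 scale, were -6.36 for LHCBM9, -3.29 for HRP3, -2.56 for DNJ14, -2.26 for PAO1, -2.26 for FAP51, -2.15 for TBA1, -2.12 for SBD1, -2.11 for UGD1 (EZY12), -2.01 for PHC8 and 3.36 for LAL2. The errors behind the test come from the deposited p-values and not from the libraries themselves, and amiCYG12 is 1 transformant line, so a difference between strains and a difference between this transformant and other lines cannot be told apart. DNJ14, PAO1 and FAP51 were weakly expressed, at 5.36 FPKM or less in both conditions of both strains.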

How the results depend on the processing

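No paired analysis was possible because the table holds 1 pooled value per group, and for the same reason leaving out each replicate could not be run. Of the 941 loci called higher and 1653 lower, 597 and 1076 were left at a q of at most 0.01, and 251 and 934 at a minimum of 10 FPKM in 1 of the 2 groups, which tests fewer loci. Adjusting the deposited p-values within this comparison gave 972 and 1697, no minimum gave 1093 and 1713, and rescaling to a common median ratio gave 1353 and 1266. Of the strain differences, 7 positive and 21 negative, 3 and 13 were left at a minimum of 10 FPKM in 1 of the 4 groups, rescaling gave 7 and 24, and errors from the strain comparisons gave 9 and 35; the cause was not tested. Among the 10 loci with a symbol, TBA1 lost its call with the errors from the strain comparisons (adjusted p of 0.11) and kept it under rescaling. A change of pseudocount cannot alter the sign of a log2 value. Rescaling removed a shift of only -0.18 on the log2 scale, so signs test little there. No called log2 value of a named gene or list member changed sign with FPKM summed over transcripts or with rescaling. The value of 227 of 401 such loci moved by more than its recovered error under a pseudocount of 10 FPKM. The missing depth limits what a low FPKM can show: values under 1 FPKM carry no interval here.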

Other observations

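Of 22 measured genes named for gametes or zygotes 13 fell and 5 rose in dark anoxia against light, with a median log2 of -1.05; among the members that fell, RPT4 and RPT2 are proteasome subunits, CHC1 is clathrin and ACT1 is actin. Of 11 nitrogen genes the nitrite reductase NII1, the glutamate synthase GSF1 and the glutamine synthetase GLN1 fell and the glutamate dehydrogenase GDH1 rose. Of 6 photoprotection genes LHCSR1 and ELI2 fell, LHCSR1 to 0.145 FPKM in dark anoxia, against 3.81 FPKM in light, and ELI3 rose. Among 11 clock and photoreceptor genes ROC40, ROC15 and the cryptochrome CPH1 rose and ROC59 fell. Of 5 neutral lipid genes the lipase LIP2 rose and the lipid droplet protein MLDP1 fell. The 1 measured gene of the autophagy list, TOR1, had 3.64 FPKM in dark anoxia and 1.99 FPKM in light and was not called.

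The loci Cre14.g634279 and Cre08.g374100 were listed at 0 FPKM in dark anoxia and in dark aerated cells of amiCYG12 and at 2781 and 7.09 FPKM in light. Their status in the authors' deposited table is HIDATA, which marks loci that were not tested, and the wild type had 2658 and 4.58 FPKM in dark anoxia and 2456 and 4.66 FPKM in light. At this status a value of 0 FPKM cannot be read as an absent transcript. These 2 loci were chosen after their values were seen.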
